A study of Mus musculus with 2 samples.

Results

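The Ifi200 genes are a family of interferon-inducible genes that lie side by side on mouse chromosome 1. The 10 members described here are Ifi202b, Ifi203, Ifi204, Ifi205, Ifi207, Ifi209, Ifi211, Ifi213, Mndal and Aim2. They were chosen by symbol among the 32285 genes of the count matrices, because Ifi202b differed between the 2 genotypes and the others are its neighbours. All 10 were detected. Since values of this contrast led to the choice, every level and ratio between the genotypes is given as a description, with no test.

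The data are RNA counts of single kidney cells, from 1 Cre- and 1 PHDTiEC animal, collected on day 14 after unilateral ischemia-reperfusion injury (uIRI). The PHDTiEC mouse carried Cdh5-CreERT2 together with floxed alleles of all 3 sensor genes (Phd1f/f with Phd2f/f and with Phd3f/f). In such a mouse tamoxifen activates a Cre recombinase under the promoter of the endothelial gene Cdh5 to delete the oxygen sensors PHD1, PHD2 and PHD3. Its Cre- littermate lacked the recombinase. Both mice were 8 to 10 weeks old at surgery, both had a renal artery clamped for 25 minutes, and both received 4 doses of 3 mg tamoxifen. The labels do not give the floxed alleles of the Cre- mouse or the strain of either mouse. With 1 library per genotype, genotype, individual mouse, inherited background and library cannot be told apart.

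The Cre- library held 136004367 UMIs (unique molecular identifiers, each 1 captured RNA molecule) and the PHDTiEC library 146758812. Barcodes with 500 to 100000 UMIs, at least 200 genes and at most 50% mitochondrial UMIs were kept as cells, which gave 8548 Cre- cells with a median of 7500 UMIs and 9309 PHDTiEC cells with a median of 7898. The libraries shared 28 kept barcodes. Cells were clustered without the 10 members, and a cluster was called by a cell type with the ending "-like" where it met its marker genes. Endothelial-like cells of the library labelled PHDTiEC held 202 CPM (UMIs per 1000000 UMIs of the class) of Egln1, which encodes PHD2, against 67.8 in Cre-. Egln3, which encodes PHD3, stood at 160 against 26 CPM, and Egln2, which encodes PHD1, at 39.3 against 44.3 CPM. The kit counts the 3′ end of a transcript, and whether those ends lie outside the floxed exons is not given in the sources used here, so these counts do not check the deletion.

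Proteins of the family, also called PYHIN or HIN-200 proteins, bind DNA through a HIN domain, and most of them carry a pyrin domain that assembles signalling complexes. AIM2 senses double-stranded DNA in the cytosol and builds an inflammasome with the adaptor ASC, encoded by Pycard, which activates caspase-1. The Ifi204 protein acts in DNA sensing upstream of STING. The Ifi202b protein, p202, has HIN domains without a pyrin domain and can bind DNA in competition with AIM2. Ifi202b is known as a candidate gene for lupus in mice, and its expression is known to vary among inbred strains. Macrophages and dendritic cells are known for expression of many of these genes.

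The members span 681 kb of chromosome 1 in the GRCm38 build, from Aim2 at chr1:173350879-173466040 to Ifi205 at chr1:174011998-174031810, with 8 genes on the minus strand and 2, Aim2 and Ifi209, on the plus strand. Ifi202b (ENSMUSG00000026535) lies at chr1:173962568-173982744 on the minus strand and has 1 annotated transcript of 7 exons. Its neighbours are Ifi203 at chr1:173920407-173942672 on one side and Ifi205 on the other. Mndal, at chr1:173849126-173942491, overlaps Ifi203 and Ifi211 on the same strand. Ifi213 lies at chr1:173566283-173599274, Ifi209 at chr1:173630917-173647928, Ifi207 at chr1:173723427-173741747, Ifi204 at chr1:173747293-173766943 and Ifi211 at chr1:173896345-173913046. The matrices also hold 3 genes of the cluster that are not among the 10, namely Ifi206, Ifi208 and Ifi214.

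Sequences before the transcription start were at hand for 9 of the 10 members and for these 3 genes (RefSeq, GRCm38.p6). The 250 bases before each start were searched on both strands for GAAA, any 2 bases and GAAA again, the core of the interferon-stimulated response element (ISRE), which is known from promoters of interferon-induced genes. They occurred in 6 of the 9 members and in 10 of the 14 promoters of the 12 genes, against 2.98% of 32851 promoters of all genes. Ifi202b, Ifi209 and Aim2 did not hold them. The promoter of Ifi202b was the 1 of the 14 that held TTCNNNGAA, the core of the gamma-activated site (GAS), which is known from promoters of genes induced by interferon-γ, a match found in 7.02% of all promoters. The core of the hypoxia response element, ACGTG, was in 0 of the 14 and in 16.6% of all promoters. The core of an NF-kB site, here GGGA, any 3 bases and CCC, was in 0 of the 14 and in 4.77% of all. TATAAA was in 5 of the 14 and in 12.4% of all. A match says only that the letters are present.

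The sequences shown are those of Ifi202b, the gene the comparison turns on, of Ifi213, which differed most in the opposite direction, of Ifi208, nearly identical to it, and of the Ifi207 and Ifi211 promoters as further examples with the ISRE core. They read 5′ to 3′ toward the start of the gene, and capitals mark the GAS match in Ifi202b and the ISRE core in the others. Ifi202b is chr1:173982845-173983094 (minus strand), Ifi213 chr1:173599275-173599522 (minus, without the 2 bases nearest the start, which lie in an annotated exon), Ifi208 chr1:173673415-173673664 (plus), Ifi207 chr1:173741810-173742059 (minus) and Ifi211 chr1:173913047-173913296 (minus).
Ifi202b: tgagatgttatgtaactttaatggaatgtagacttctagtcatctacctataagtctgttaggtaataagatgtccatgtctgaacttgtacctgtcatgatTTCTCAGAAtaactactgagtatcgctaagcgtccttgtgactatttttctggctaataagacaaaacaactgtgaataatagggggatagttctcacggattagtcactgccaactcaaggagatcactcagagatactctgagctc
Ifi213: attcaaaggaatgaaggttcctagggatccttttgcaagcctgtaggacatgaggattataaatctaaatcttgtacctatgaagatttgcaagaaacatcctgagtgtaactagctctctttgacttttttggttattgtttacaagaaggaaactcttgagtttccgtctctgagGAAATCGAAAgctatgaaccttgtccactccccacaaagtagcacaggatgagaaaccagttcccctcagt
Ifi208: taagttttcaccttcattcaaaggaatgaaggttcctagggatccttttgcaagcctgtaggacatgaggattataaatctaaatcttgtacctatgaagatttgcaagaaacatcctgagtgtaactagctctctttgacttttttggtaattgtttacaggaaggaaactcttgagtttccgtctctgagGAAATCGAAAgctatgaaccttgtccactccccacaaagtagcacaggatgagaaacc
Ifi207: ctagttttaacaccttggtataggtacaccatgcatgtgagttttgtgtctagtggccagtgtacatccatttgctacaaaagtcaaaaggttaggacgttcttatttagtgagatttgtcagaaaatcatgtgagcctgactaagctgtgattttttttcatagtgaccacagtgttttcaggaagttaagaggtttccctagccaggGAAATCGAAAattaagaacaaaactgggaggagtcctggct
Ifi211: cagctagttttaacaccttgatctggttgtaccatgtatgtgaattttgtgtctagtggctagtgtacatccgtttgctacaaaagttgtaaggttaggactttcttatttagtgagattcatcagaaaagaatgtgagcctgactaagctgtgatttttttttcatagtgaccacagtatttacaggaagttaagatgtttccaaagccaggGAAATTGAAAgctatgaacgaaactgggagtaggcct

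The GAS letters of Ifi202b began 148 bases before the start. The ISRE core began 73 bases before the start in Ifi213, 58 in Ifi208, 41 in Ifi207, 37 in Ifi211 and 35 in Ifi203. For Mndal the core began 36 bases before a start. The window of another Mndal start held the core on the other strand, 54 bases before that start. In Ifi205 it began 134 bases before the start. The Ifi213 and Ifi208 windows shared 233 of 235 overlapping bases (99.1%), and those of Ifi208 and Ifi206 shared 231 of 232 (99.6%). The Ifi202b window was no more than 40.1% identical to that of any other gene of the cluster, which was Ifi206.

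Ifi202b was found in many Cre- cells and in very few cells of the library labelled PHDTiEC. Over all kept cells, 1387 UMIs lay in 934 of the 8548 Cre- cells and 34 UMIs in 10 of the 9309 PHDTiEC cells. The level was 11.7 CPM (exact Poisson 95% interval 11.1 to 12.4) against 0.256 CPM (0.178 to 0.358), or 45.7-fold lower, a log2 ratio of -5.51 (-6.05 to -5.02). These intervals cover counting error only and hold no difference between mice. Ranked with the 16895 genes whose UMIs summed to 50 or more, this ratio had rank 2 from the lowest.

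Cells with many copies were few even in the Cre- library. There, 664 cells held 1 Ifi202b UMI, 171 held 2 and 99 held 3 or more, with a highest value of 13 in an injured proximal tubule (PT)-like cell. Cre- cells with the transcript had a median of 9247 UMIs against 7500 over all kept Cre- cells, so deeper cells were more often positive.

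Macrophage-like cells carried the largest part of the Cre- Ifi202b counts. In Cre-, 631 UMIs lay in 438 of 1691 macrophage-like cells (25.9%, exact binomial 95% interval 23.8 to 28.1), a level of 42.8 CPM (39.5 to 46.3). In PHDTiEC, 1 UMI lay in 1 of 1852 such cells, a level of 0.0577 CPM (0.00146 to 0.322). The ratio was 741-fold, with a log2 value of -9.53 and an interval of -14.84 to -7.05 that rests on that 1 UMI, and it was the lowest of 10983 genes of the class. With each cell thinned to 2000 UMIs, 168 of 1656 Cre- cells (10.1%, 8.73 to 11.7) and 0 of 1815 PHDTiEC cells held the transcript, where a count of 0 allows a share of cells with a UMI of up to 0.165% by the floor of 3 counts and up to 0.203% by the exact binomial limit. T-like cells, which lack macrophage genes and serve as a background, held 1 UMI in 591 Cre- cells (0.169%) and 0 in 708 PHDTiEC cells, with median depths of 3162 UMIs for T-like and 6464 for macrophage-like cells in Cre-. After the same thinning, 1 of 524 T-like Cre- cells (0.191%) was positive.

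Both macrophage-like clusters showed the difference. Cluster 0, led by Ccl8, Ccl12 and Mrc1, held 473 Ifi202b UMIs in Cre- (56.4 CPM) and 1 in PHDTiEC. Cluster 8, led by Gpnmb, Fabp5 and Mmp12, held 158 UMIs in Cre- (24.9 CPM) and 0 in PHDTiEC, at least 66.8-fold lower when 0 is set to 3 counts per library. Every fold given as "at least" in this report is such a bound. It leaves out the counting error of the other count, so with few UMIs the difference can be smaller.

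**Figure D1:**
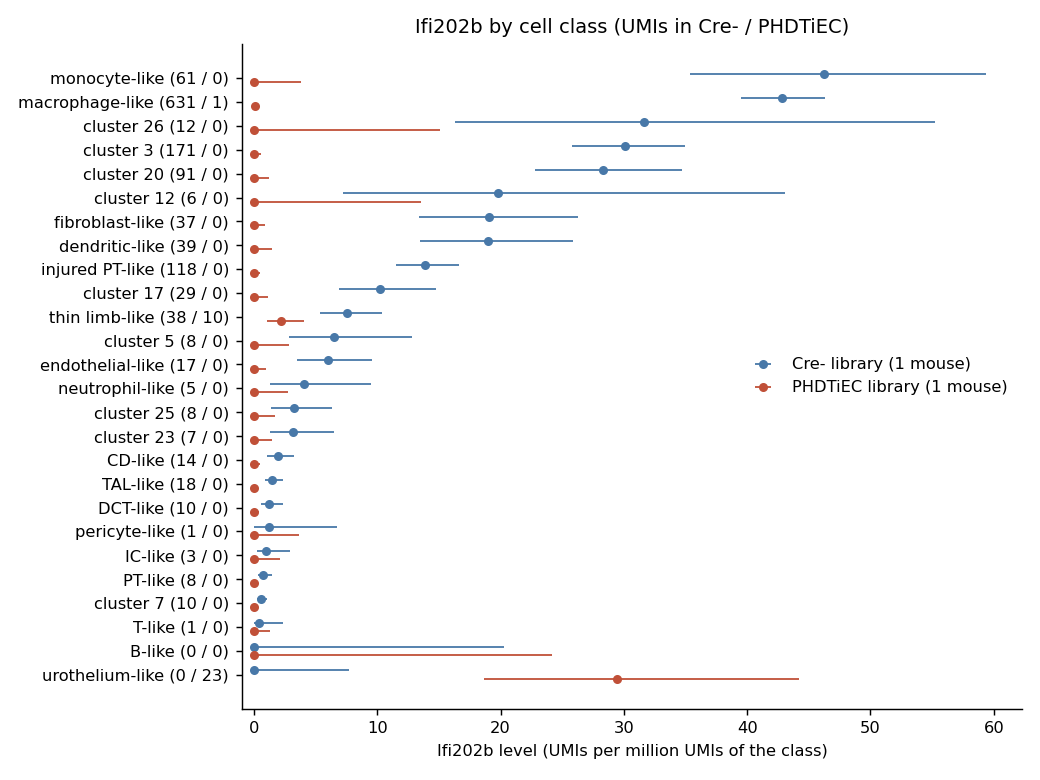
Ifi202b level (CPM of the class) in the cell classes with at least 20 cells per library, as points with exact Poisson 95% intervals on a linear axis, with the UMIs of the Cre- and PHDTiEC libraries beside each class name. Macrophage-like cells stand at 42.8 CPM in Cre- and 0.0577 in PHDTiEC, while urothelium-like cells stand at 0 in Cre- and 29.4 in PHDTiEC.

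Monocyte-like and dendritic-like cells and 3 clusters without a cell type name had the same direction. Monocyte-like cells held 61 Ifi202b UMIs in Cre- (46.2 CPM) and 0 in PHDTiEC, at least 14.7-fold lower. Dendritic-like cells held 39 (19 CPM) and 0, at least 16.2-fold lower. Cluster 3, led by Tnip3, Ccl9, Ccr2 and Mgl2 and left without a name, held 171 UMIs in 129 of 551 Cre- cells (30.1 CPM) and 0 in 620 PHDTiEC cells, at least 65.4-fold lower. Cluster 20, led by genes of dividing cells such as Top2a and Mki67, held 91 (28.3 CPM) and 0, at least 29.1-fold lower. Cluster 28, led by the interferon-induced genes Cxcl9, Cxcl10, Ifit2, Rsad2 and Isg15, held 43 UMIs in 18 of 19 Cre- cells (317 CPM) and 0 in 36 PHDTiEC cells, at least 26.5-fold lower. In neutrophil-like cells the counts were 5 and 0, or 1.84-fold lower with 0 set to 3 counts, and 5 UMIs are too few to size the difference.

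The difference also appeared outside the blood lineages. Injured PT-like cells, marked by Havcr1 and Vcam1, held 118 Ifi202b UMIs in 68 of 285 Cre- cells (23.9%, 13.9 CPM) and 0 in 261 PHDTiEC cells, at least 35.0-fold lower. PT-like cells held 8 UMIs in Cre- and 0 in PHDTiEC. Fibroblast-like cells held 37 UMIs in Cre- (19.1 CPM) and 0 in PHDTiEC, at least 26.8-fold lower. Endothelial-like cells, the cells in which Cdh5 drives the Cre, held 17 UMIs in Cre- (5.97 CPM) and 0 in PHDTiEC, at least 7.55-fold lower. The difference was thus present in classes other than the endothelial one. Thick ascending limb (TAL)-like cells held 18 UMIs in Cre- and 0 in PHDTiEC, collecting duct (CD)-like cells 14 and 0, and distal convoluted tubule (DCT)-like cells 10 and 0. The positive Cre- cells of these classes were deeper than their class, with median depths of 57887 against 17068 UMIs in TAL-like, 35102 against 16546 in CD-like and 60946 against 20046 in DCT-like cells. Free RNA was estimated at 1.22% to 1.47% of the UMIs of these Cre- classes. In endothelial-like Cre- cells the estimate was higher, at 6.05%, and the positive cells had a median depth of 10983 UMIs against 5235. In PT-like Cre- cells it was 1.66%, with median depths of 36462 against 19295.5. The part of doublets and free RNA in these counts was not tested.

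Nearly all PHDTiEC Ifi202b counts lay in 2 epithelial classes. Of the 34 UMIs, 33 were in thin limb-like and urothelium-like cells, and the other classes held 1 UMI in 9062 cells, against 1349 UMIs in 913 positive Cre- cells of the same classes. Urothelium-like cells, marked by Upk3a, Krt5 and Psca, held 23 UMIs in 5 of 33 PHDTiEC cells (29.4 CPM, 18.7 to 44.2) and 0 in 25 Cre- cells, at least 4.69-fold higher in PHDTiEC, where 0 of 25 cells allows a share of cells with a UMI of up to 12% by the floor of 3 counts and up to 13.7% by the exact binomial limit. Thin limb-like cells held 38 UMIs in 21 of 245 Cre- cells (7.59 CPM) and 10 UMIs in 4 of 214 PHDTiEC cells (2.22 CPM), a log2 ratio of -1.78 (-2.95 to -0.74).

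The 5 positive urothelium-like PHDTiEC cells held 8, 5, 4, 4 and 2 Ifi202b UMIs at depths of 10896, 19156, 34515, 39774 and 39684 UMIs, with 18 to 72 UMIs of urothelium markers. The 4 positive thin limb-like cells held 5, 3, 1 and 1. The thin limb-like cell with 5 had 69663 UMIs in all, of which 57 were urothelium and 56 thin limb markers. The cell with 3 had 3 urothelium and 3 thin limb marker UMIs. Of those with a single Ifi202b UMI, 1 held 301 UMIs of macrophage markers and 0 of thin limb markers. The other held 25 thin limb and 5 urothelium marker UMIs. The thin limb-like counts of PHDTiEC thus rest on few cells, most without a clear excess of thin limb markers. The macrophage-like cell held 216 macrophage marker UMIs at a depth of 8093. Whether cells with markers of more than 1 type are doublets was not tested. None of the 10 positive cells carried a barcode that was also kept in Cre-.

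Reads outside cells showed the same difference. Barcodes under 100 UMIs, which mostly hold free RNA, had 39 Ifi202b UMIs in Cre- (8.08 CPM, 5.75 to 11) and 1 in PHDTiEC (0.164 CPM). All barcodes that were not kept held 114 and 3 UMIs.

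The other 9 members differed far less than Ifi202b and not all in the same direction. Ranked by log2 ratio over all kept cells, Ifi213 was at percentile 99.6 of all genes, Ifi209 at 96.9, Ifi205 at 94.6, Ifi204 at 93.9 and Ifi207 at 90.8, while Aim2 was at 26.2. In macrophage-like cells Ifi203, Mndal and Ifi211 were at percentiles 8.38, 8.98 and 10.8. These percentiles describe the 2 libraries. Over all kept cells all 10 had at least 50 UMIs, Ifi202b was the 1 member 2-fold or more lower and Ifi213 the 1 member 2-fold or more higher, where 0.722% of the 16895 genes were 2-fold or more lower and 0.734% 2-fold or more higher. The counting interval of the log2 ratio lay wholly above 0 for 7 members, where it did so for 33% of all genes, and wholly below 0 for 1 member, against 18.7% of all genes. The median log2 ratio of the members was 0.24, and 0.31 without Ifi202b, beside 0.04 over all genes. In macrophage-like cells 9 members had at least 50 UMIs. There, 4 had an interval above 0 (20.5% of all genes), 4 below (9.82%) and 1 held 0. The median was -0.03, and 0.10 without Ifi202b, beside 0.05 over all genes, with 0.455% of genes 2-fold or more higher and 0.519% 2-fold or more lower. Summed over the 9 members other than Ifi202b, macrophage-like cells held 615 CPM in Cre- and 650 CPM in PHDTiEC.

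**Figure D2:**
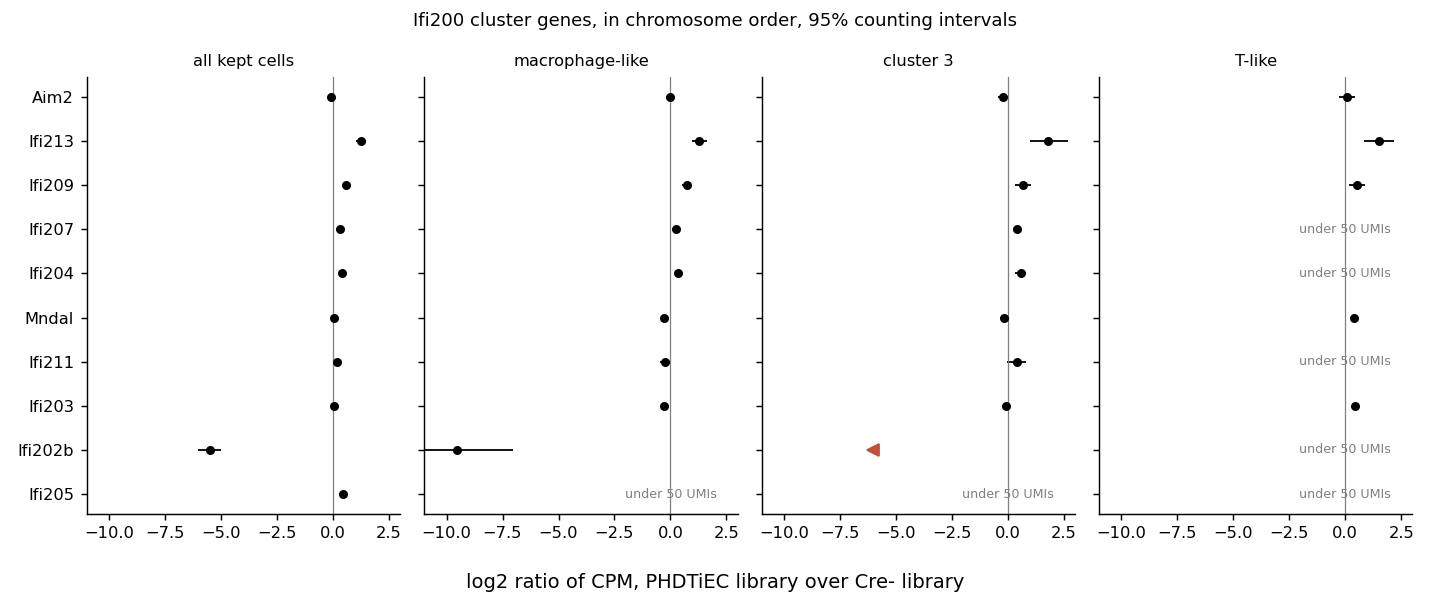
Log2 ratio of CPM (PHDTiEC over Cre-) of each member in all kept cells, macrophage-like cells, cluster 3 and T-like cells, with 95% counting intervals and a triangle for the bound where 1 library held 0. Members under 50 UMIs carry no point, and the interval of Ifi202b in macrophage-like cells runs past the axis. Ifi202b is the far-left point, at -5.51 over all kept cells, and Ifi213 the member farthest right, at 1.25.

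Aim2, the inflammasome sensor, was nearly level between the libraries. It had 1667 UMIs in Cre- and 1769 in PHDTiEC (14.1 and 13.3 CPM), which gave a log2 ratio of -0.08 (-0.18 to 0.02). In macrophage-like cells the counts were 606 and 699 (41.1 and 40.4 CPM), a ratio of -0.03 (-0.19 to 0.13), an interval that excludes a 2-fold difference in these counts. Neutrophil-like cells held 62.9 CPM in Cre- and 72.6 in PHDTiEC, and T-like cells 51.9 and 54.5. Over the 8 classes with at least 50 Aim2 UMIs, 3 were higher and 5 lower in PHDTiEC, and the lowest, cluster 20, stood at -0.46 (-0.80 to -0.12).

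Ifi204, which acts in DNA sensing with STING, was higher in the PHDTiEC library in most classes with at least 50 UMIs. It had 2030 UMIs in Cre- and 3001 in PHDTiEC (17.2 and 22.6 CPM), a log2 ratio of 0.40 (0.32 to 0.48). Macrophage-like cells held 888 and 1314 UMIs, a ratio of 0.33 (0.21 to 0.46). Monocyte-like cells held 139 and 176 UMIs (105 and 184 CPM), a ratio of 0.80 (0.48 to 1.14). Ifi204 was higher in 9 of the 12 classes with at least 50 UMIs, with the interval above 0 in 6 and below 0 in 1. Injured PT-like cells held 48 UMIs in Cre- and 82 in PHDTiEC, a ratio of 0.94 (0.41 to 1.49), and the dividing cluster 20 went the other way at -0.45 (-0.86 to -0.04).

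Ifi207, a further family member with a pyrin domain, differed in the same direction. It had 5848 UMIs in Cre- and 8137 in PHDTiEC (49.4 and 61.4 CPM), a log2 ratio of 0.31 (0.26 to 0.36). It was higher in PHDTiEC in 16 of 19 classes with at least 50 UMIs, with the interval above 0 in 10 and below 0 in 0. The classes come from the same 2 libraries and are not replicates. Macrophage-like cells held 242 CPM in Cre- and 283 in PHDTiEC, a ratio of 0.23 (0.16 to 0.29). Within them the ratio was 0.21 in cluster 0 and 0.62 (0.47 to 0.78) in cluster 8. Monocyte-like cells held 201 and 261 UMIs, a ratio of 0.84 (0.57 to 1.11). In endothelial-like cells, 29 UMIs in Cre- and 79 in PHDTiEC (10.2 and 20.8 CPM) gave a ratio of 1.03 (0.40 to 1.70).

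Ifi213 differed most among the members with higher counts in PHDTiEC. It had 231 UMIs in Cre- and 616 in PHDTiEC (1.95 and 4.65 CPM), a log2 ratio of 1.25 (1.03 to 1.48), rank 62 from the highest of the 16895 genes. Macrophage-like cells held 99 and 285 UMIs (6.72 and 16.5 CPM), a ratio of 1.29 (0.96 to 1.64), rank 21 from the highest of the class. Only 4 classes held at least 50 Ifi213 UMIs, so the difference was not described for most cell types. T-like cells held 27 and 90 UMIs, a ratio of 1.48 (0.85 to 2.16), and cluster 3 held 16 and 63, a ratio of 1.78 (0.97 to 2.67). Cluster 28 stood apart from these, at 25 UMIs in 19 Cre- cells and 50 in 36 PHDTiEC cells, a ratio of 0.12 (-0.60 to 0.87).

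Ifi209 lay between Ifi213 and Ifi207 in its ratio. It had 862 UMIs in Cre- and 1431 in PHDTiEC (7.29 and 10.8 CPM), which gave a log2 ratio of 0.57 (0.44 to 0.69). In macrophage-like cells 283 and 550 UMIs (19.2 and 31.8 CPM) gave a ratio of 0.73 (0.52 to 0.94), and monocyte-like cells reached 0.86 (0.38 to 1.35). T-like cells were higher too, at 0.53 (0.17 to 0.89). Dendritic-like cells were at 0.20, with an interval from -0.18 to 0.59 that holds 0.

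Ifi203 and Mndal, which overlap on the genome, had opposite signs in macrophage-like and T-like cells. Ifi203 had 5110 UMIs in Cre- and 5908 in PHDTiEC, a log2 ratio of 0.05 (-0.01 to 0.10) over all kept cells, and Mndal 5148 and 6001, a ratio of 0.06 (0.00 to 0.11). In macrophage-like cells Ifi203 stood at 110 and 89.4 CPM, a ratio of -0.30 (-0.40 to -0.19), and Mndal at 111 and 90.9 CPM, a ratio of -0.28 (-0.38 to -0.18). In T-like cells Ifi203 stood at 274 CPM in Cre- and 371 in PHDTiEC, a ratio of 0.44 (0.30 to 0.58), and Mndal at 254 and 328 CPM, a ratio of 0.37 (0.22 to 0.52). The difference between the classes was not tested. In endothelial-like cells Ifi203 was at 184 and 193 CPM (0.07) and Mndal at 130 and 173 CPM (0.41, 0.23 to 0.60).

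Ifi211 was lower in macrophage-like cells and higher in fibroblast-like cells of the PHDTiEC library, a difference between classes that was not tested. It had 932 UMIs in Cre- and 1169 in PHDTiEC, a log2 ratio of 0.16 (0.04 to 0.29). In macrophage-like cells the counts were 373 and 370, a ratio of -0.24 (-0.46 to -0.03), and in fibroblast-like cells 22 and 92, a ratio of 0.95 (0.26 to 1.69). Dendritic-like cells held 129 and 176 UMIs (62.7 and 68.6 CPM).

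Ifi205 was largely a dendritic-like gene in these libraries. It had 425 UMIs in Cre- and 639 in PHDTiEC, a log2 ratio of 0.42 (0.24 to 0.60). Dendritic-like cells held 277 of the Cre- UMIs, in 86 of 192 cells, and 454 of the PHDTiEC UMIs, in 96 of 242 cells. Their levels were 135 and 177 CPM, a ratio of 0.39 (0.18 to 0.62). Macrophage-like cells held 12 and 21 Ifi205 UMIs, too few for the list of genes with at least 50.

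**Figure D3:**
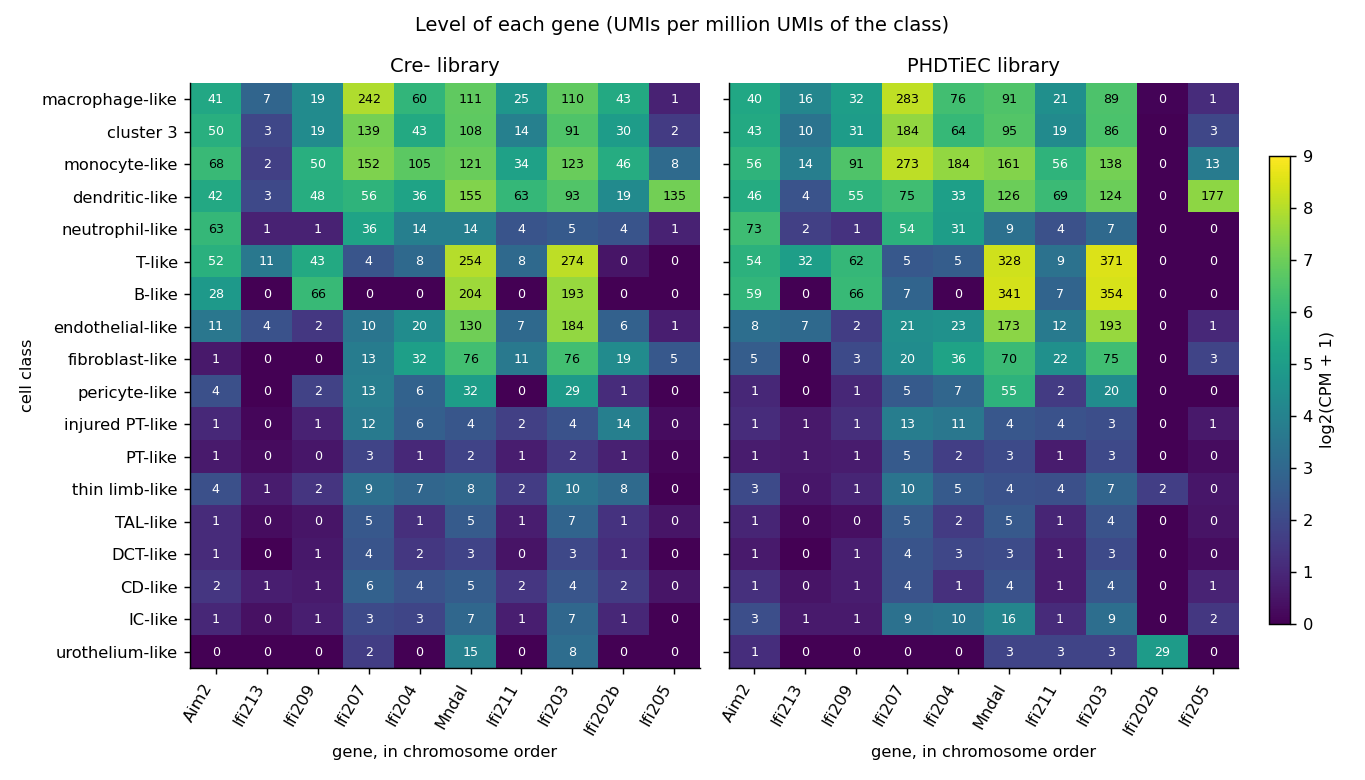
Level of each member in 18 cell classes (one class a line) of both libraries, printed as rounded CPM and coloured by log2(CPM + 1). Ifi205 stands at 135 and 177 CPM in dendritic-like cells, Aim2 at 41.1 and 40.4 CPM in macrophage-like cells, and Ifi202b is near 0 in PHDTiEC except in thin limb-like and urothelium-like cells.

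Thinned to 2000 UMIs per cell, the share of macrophage-like cells with a UMI moved in the direction of the level for most members. It was 37.6% in Cre- and 42.6% in PHDTiEC for Ifi207, 12.7% and 16.3% for Ifi204, 5.43% and 7.49% for Ifi209, and 1.75% and 4.68% for Ifi213. It was 24% and 18.7% for Mndal, 22.6% and 19.3% for Ifi203, and 6.64% and 4.90% for Ifi211. Aim2 was found in 8.70% and 7.27%. At 2000 UMIs 1656 Cre- and 1815 PHDTiEC macrophage-like cells remained. Among the 1656, Ifi202b was found in 20% of cells with Ifi209 and 9.58% of cells without it, in 14.3% and 9.54% for Ifi204, and in 13% and 8.41% for Ifi207. The share for Ifi209 rests on 18 of 90 cells. The share was also higher in cells with Ifi203 (49 of 375 cells), Ifi211 (15 of 110) or Ifi213 (4 of 29). It was nearly level for Mndal (10.1% and 10.2%), and 9.03% and 10.3% for Aim2 (13 of 144 cells with it). No intervals were computed for these shares, and the differences were not tested.

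**Figure D4:**
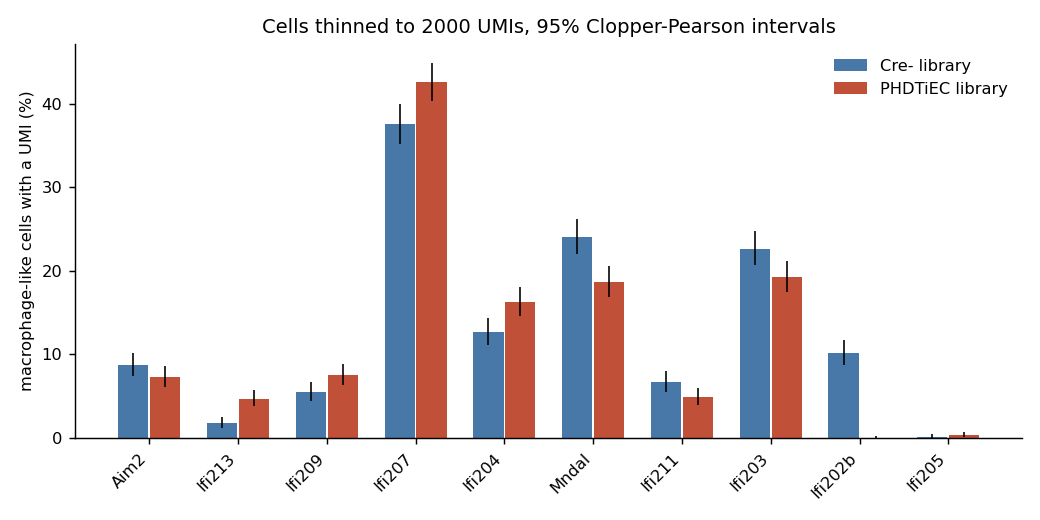
Share of macrophage-like cells with a UMI (%), each cell thinned to 2000 UMIs, for each member in both libraries, with exact binomial 95% intervals. Ifi202b stands at 10.1% in Cre- and 0 in PHDTiEC, and Ifi207 at 37.6% and 42.6%.

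The 3 genes of the cluster outside the list were all higher in PHDTiEC. Ifi206, a family member next to Aim2, had 252 and 541 UMIs, a log2 ratio of 0.94 (0.72 to 1.16), and Ifi208 had 162 and 346, a ratio of 0.93 (0.66 to 1.21). Ifi214 had 138 and 219, a ratio of 0.50 (0.19 to 0.82). The promoter windows of Ifi206 and Ifi208 were nearly identical to that of Ifi213, as given above.

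Interferon-induced genes outside the cluster were slightly higher in PHDTiEC over all kept cells, with a larger rise in some classes and the opposite direction in others. Of 34 such genes in the matrices, 31 were higher and 3 lower over all kept cells, with a median log2 ratio of 0.24 beside 0.04 over all genes. No gene of that list was 2-fold or more higher or lower. Ifit1, which binds foreign RNA, was at 0.62, Rsad2 (viperin) at 0.49, Oasl2 at 0.43 and Cxcl10, a chemokine for T cells, at -0.21. In macrophage-like cells 23 were higher and 11 lower, with a median of 0.15. In endothelial-like cells 27 were higher and 3 lower, with a median of 0.47. The median was 0.54 in PT-like cells (19 higher and 5 lower) and in DCT-like cells (21 and 4). Monocyte-like cells stood at 0.40 (17 and 2) and cluster 25 at 0.93 (18 and 0). In cluster 28, 6 were higher and 26 lower, with a median of -0.31, in cluster 20, 3 and 20, with a median of -0.44, in cluster 23, 8 and 19, with a median of -0.13, and in dendritic-like cells, 11 and 15, with a median of -0.04. Over all genes, the medians of these classes lay between -0.02 (cluster 25) and 0.12 (DCT-like cells), with 0.05 in macrophage-like and 0.01 in endothelial-like cells. The share of all genes that were higher was not counted per class, so the counts of higher and lower genes have no background beside them. The part of interferon-induced genes in the levels of the members was not tested. Of 13 genes of interferon receptors and signalling, 10 were higher and 3 lower, with a median of 0.13, including Stat2 at 0.26. Of 20 genes of DNA sensing and the inflammasome with at least 50 UMIs, 11 were higher and 9 lower, with a median of 0.05. Cgas stood at 0.12, Tmem173 (STING) at -0.06, Pycard at -0.05, Il1b at -0.25 and Il18 at -0.31. The lists were chosen with earlier results known, and a median describes these 2 libraries only.

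Genes next to the cluster had a median close to level between the libraries. Within 5 Mb of the outermost members, 101 of 163 annotated genes other than the cluster had at least 50 UMIs, with a median log2 ratio of 0.06, quartiles of -0.13 and 0.22, 1 gene 2-fold or more higher and 1 lower. The highest was Slamf7 at 1.01, a receptor of immune cells, followed by Gm9929 at 0.80 and Kmo at 0.71. The lowest was Apcs at -1.55, a gene of a serum pentraxin, followed by Rgs4 at -0.54 and Cfap126 at -0.51. The ratio of Ifi202b, at -5.51, lay outside their range. Within 2 Mb, 46 genes had a median of 0.07 and quartiles of -0.21 and 0.32. Over chromosome 1, 996 genes had a median of 0.06 and narrower quartiles of -0.07 and 0.19, with 11 genes 2-fold or more higher and 7 lower. Over all 16895 genes the shares 2-fold or more higher and lower were 0.734% and 0.722%. The difference in spread was not tested.

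**Figure D5:**
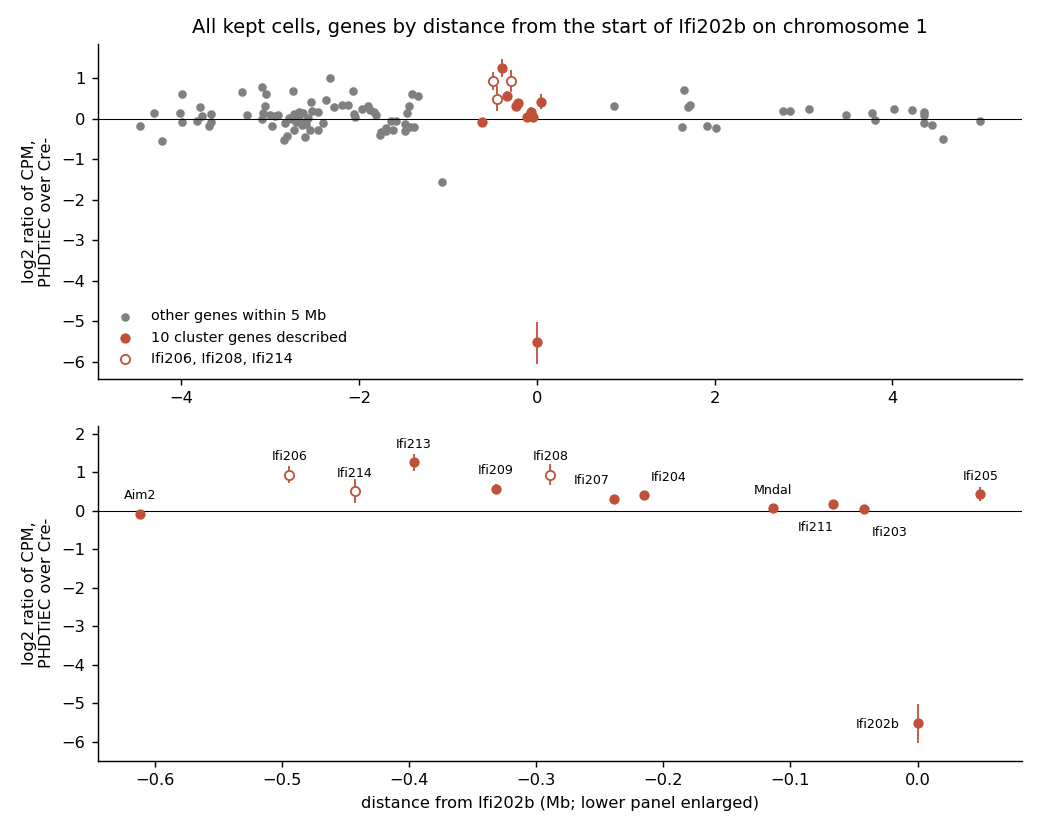
Log2 ratio of CPM (PHDTiEC over Cre-) of genes within 5 Mb of the cluster against their distance from Ifi202b in Mb, with the 10 members as filled points, Ifi206, Ifi208 and Ifi214 as open points, bars for 95% counting intervals and the lower panel enlarged. The neighbours range from -1.55 to 1.01, while Ifi202b stands at -5.51.

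Reads can be assigned wrongly where members share sequence. The last 600 bases of the longest transcript of each member were cut into 511 windows of 90 bases, the length of the sequenced read, and looked for in the whole transcripts of the other genes. Ifi202b, Ifi203, Ifi204, Ifi205, Ifi207 and Aim2 shared 0 windows with any other gene of the cluster. Ifi209 shared 289 (56.6%) with Ifi214 and Ifi211 shared 329 (64.4%) with Ifi205, so counts of these pairs are uncertain, as are those of the overlapping Mndal, Ifi203 and Ifi211. Mndal shared 35 (6.85%) and Ifi213 15 (2.94%, with Ifi208). With 2 mismatches allowed, Ifi213 shared 148 windows (29%, with Ifi208), Mndal 238 (46.6%), Ifi211 426 (83.4%) and Ifi209 440 (86.1%), and Ifi202b still shared 0. Only these reference windows were compared, not the reads. How reads that match 2 genes were counted is not given in the sources used here.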

How the data were processed

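Day 14 postischemic kidneys of 1 Cre- and 1 PHDTiEC mouse were measured with the 10X Genomics 3′ kit. The authors aligned reads with Cell Ranger 4 to mm10 and deposited raw UMI counts per gene and barcode, with no cell filter or normalization. Barcodes were filtered as given above and clustered in Seurat 5.3.0 (R 4.3.3) from 2000 variable genes without the members, 20 principal components and a resolution of 0.8, which gave 31 clusters. Doublet scoring (scanpy 1.11.5) called 0 cells and did not work here, so no doublets were removed. Counts were summed per class and library. Intervals are exact Poisson for levels and exact binomial for shares and ratios, and a count of 0 was set to 3 counts. Each genotype has 1 library, so no test or p-value was computed. The scripts were tested on simulated data. TMM came from edgeR 4.0.16, and figures from matplotlib 3.10.9. Positions were taken from GENCODE on GRCm38, with 32158 genes matched. Members and lists were chosen with earlier results of these data known. The genes named are the members, the other cluster genes and examples from the lists, with the 3 highest and 3 lowest neighbours. Protein sequences were not analysed here.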

Additional observations from a re-analysis of the deposited data

Results flagged for a closer look

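These results had opposite signs of the log2 ratio (PHDTiEC over Cre-) in different classes, with 1 library per genotype. The differences between classes were not tested. Ifi202b was at least 2.23 higher on the log2 scale in urothelium-like cells, a bound with the Cre- count of 0 set to 3. It came from 23 UMIs in 5 of 33 PHDTiEC cells and 0 in 25 Cre- cells. In macrophage-like cells Ifi202b stood at -9.53. Ifi203 was at 1.53 in cluster 30, from 9 and 20 UMIs (interval 0.33 to 2.85), and at -1.05 in cluster 12, from 30 and 13 UMIs (-2.11 to -0.07). Cluster 30 held only 9 Cre- and 8 PHDTiEC cells, and its leading genes mixed S100a8 and S100a9 of neutrophils with Cd3g and Trbc2 of T cells. Cluster 12 had a median of 753.5 UMIs per cell, with Gm42418 and AY036118 among its leading genes. Whether these clusters are doublets or poor cells was not tested. Ifi204 was at 1.93 in intercalated cell (IC)-like cells, from 8 and 18 UMIs (0.66 to 3.34), and at -1.50 in CD-like cells, from 28 and 11 UMIs (-2.65 to -0.45). Ifi205 was at 0.39 in dendritic-like cells and at -1.04 in cluster 28, from 20 and 18 UMIs (-2.04 to -0.04). Ifi211 was at 0.95 in fibroblast-like cells and at -0.24 in macrophage-like cells. Mndal was at 1.18 in IC-like cells, from 21 and 28 UMIs (0.31 to 2.07), and at -1.01 in thin limb-like cells, from 38 and 17 UMIs (-1.93 to -0.15). Aim2 was at 3.34 in fibroblast-like cells, from 1 and 22 UMIs with an interval of 0.71 to 8.71, and at -0.46 in cluster 20.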

How the results depend on the processing

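No paired analysis was possible because each genotype has 1 library. With 1 mouse per genotype, counting intervals hold no difference between mice, and low counts leave many classes with a bound only. Ifi202b was lower in PHDTiEC over all kept cells and in macrophage-like cells under every alternative run, with log2 ratios of -6.6 to -4.79 over 13 settings and of -9.96 to -6.68 over 16. The setting without called doublets removed no cells and so repeats the main values. In macrophage-like cells PHDTiEC held 1 UMI. Where a setting dropped that cell, 0 was set to 3 counts and the value is a bound. The macrophage-like range thus mixes ratios and bounds, and a value nearer to 0 need not be a smaller difference. A stricter cell filter, at 10% of the depth of the 100th deepest barcode, gave -4.79 over all kept cells and -6.68 in macrophage-like cells, and the mean over cells of counts per 10000 gave -6.6. With a minimum of 10 UMIs in place of 50, 404 genes were 2-fold or more higher and 467 lower over all kept cells, and 278 and 377 in macrophage-like cells. With a minimum of 200 they were 50 and 53, and 14 and 11. Ifi211 turned to -0.051 over all kept cells by the mean over cells, and to 0.075 in macrophage-like cells with the stricter filter. Leaving out the top 7% of doublet scores, an alternative chosen after seeing the data, turned Ifi204 in CD-like cells to 0.047 and Ifi207 in PT-like cells to -0.15. The cause was not tested. TMM moved all ratios by -0.03 over all kept cells.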

Other observations

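With the 10 members left out, the genes whose level followed Ifi202b most closely across the 26 Cre- classes with at least 20 cells were Ccl9 (Pearson r of log2 CPM plus 1 of 0.90), Htra2 (0.89) and Rtn1 (0.89). The points share 1 library and differ in depth, and r is a description. The member most like Ifi202b was Ifi204, with an r of 0.91. For the other members, the closest gene in Cre- was Gas7 for Ifi204 (0.94), Cd68 for Ifi207 (0.94), Inpp5d for Aim2 (0.97) and Flt3 for Ifi205 (0.92). The overlapping Mndal and Ifi203 had an r of 0.98.

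Cluster 28 held 19 Cre- and 36 PHDTiEC cells and had the highest summed level of interferon-induced genes, at 28120 CPM in Cre- and 20944 in PHDTiEC. Its levels of Ifi204 were 848 and 907 CPM, of Ifi207 1283 and 1326 CPM, and of Ifi203 1239 and 787 CPM. Ifi202b was at 317 CPM in Cre- and 0 in PHDTiEC there.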
